A study of Mus musculus with 8 samples.

Results

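The BCL2 family of apoptosis regulators was followed in spleen CD4+ T cells as 10 genes chosen by symbol, out of 54532 genes in the deposited table. The 10 are Bcl2, Bcl2l1 and Mcl1, which oppose apoptosis, Bax and Bak1, which carry it out, and Bcl2l11, Bbc3, Pmaip1, Bid and Bad, which trigger it. All 10 were found once in the table and all 10 were among the 13981 genes with enough counts to be tested. The bulk RNA-seq series held 4 libraries of wild-type mouse CD4+ T cells given vehicle, and 4 given dimethyl succinate, a cell-permeable ester of the tricarboxylic acid cycle intermediate succinate, for 3 days. The file headers name the vehicle as DMSO. Both groups share genotype, tissue and cell type. The dose, the number of animals, and whether the cells were stimulated through their antigen receptor are not given in the sources used here.

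Proteins of the BCL2 family decide whether the outer mitochondrial membrane stays intact. BAX and BAK form pores in it that let cytochrome c out, BCL2, BCL-XL (from Bcl2l1) and MCL1 bind and restrain them, and the BH3-only proteins either occupy these guardians or engage BAX and BAK directly. In T cells the balance between BCL2 or MCL1 and BIM (from Bcl2l11) is known to set survival of resting cells and the death of effector cells once cytokines run low. Much of this control lies in protein binding, phosphorylation, cleavage and turnover, which transcript counts do not show.

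Total counts ran from 13407295 to 16688854 per library, and the 10 genes had from 159 counts (Bad) to 14044 counts (Mcl1) in a library. Levels below are CPM, counts relative to the TMM-scaled library total, or the deposited FPKM, which also divides by gene length. T cell transcripts were abundant: 8 T cell markers summed to 2164 to 2821 CPM, with Cd4 at 317 to 489 CPM. Siglech and Cdh5, markers of plasmacytoid dendritic cells and endothelium, had no counts, but other genes of their lists did. The dendritic list summed to 9.10 to 12.9 CPM and the list of stroma with endothelium to 28.1 to 39.5 CPM. The CD8 T cell list, Cd8a and Cd8b1, summed to 5.50 to 7.54 CPM. Marker lists of 7 other lineages (B and NK cells, monocytes, dendritic cells, neutrophils, red cells with platelets, and stroma) summed to between 0.626 and 41.7 CPM, the highest being the red cell and platelet list in vehicle replicate 4, mostly Itga2b at 39.7 CPM. Vehicle replicate 4 stood apart from the other 7 libraries. Mitochondrially encoded transcripts took 0.252% of its counts against 1.16% to 1.48% elsewhere, and its T cell markers summed to the lowest of the 8 values, 2164 CPM. Results are therefore given with it and without it, and its part in each was measured only in that way. In bulk RNA, fewer cells of one type and less RNA per cell cannot be told apart.

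Per unit of gene length, the family was dominated by 3 transcripts. Over the 8 libraries the deposited FPKM of Mcl1 was 203 ± 34.1, that of Bax 195 ± 28.9 and that of Bcl2l1 92.8 ± 10.6 (SD, n = 8). A middle tier held Bbc3 at 36.2 ± 3.85, Bcl2 at 30.4 ± 2.42 and Bak1 at 26.2 ± 5.29 FPKM. The lowest tier held Pmaip1 at 11.2 ± 2.5, Bid at 7.02 ± 0.800, Bcl2l11 at 6.84 ± 0.717 and Bad at 6.08 ± 0.667 FPKM. The order was firm between tiers only in part. Bax stood above Bcl2l1, Bcl2l1 above Bbc3 and Pmaip1 above Bid in all 8 libraries with no overlap of their ranges. Mcl1 and Bax overlapped, with Mcl1 the higher in 7 libraries, and Bid stood above Bcl2l11 in 4 of 8. Bbc3 exceeded Bcl2, Bcl2 exceeded Bak1 and Bak1 exceeded Pmaip1 in 7 libraries each, with overlapping ranges. The listed gene lengths count every annotated exon base once, for 8 of the 10 genes, and which isoforms were expressed was not measured.

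**Figure D1:**
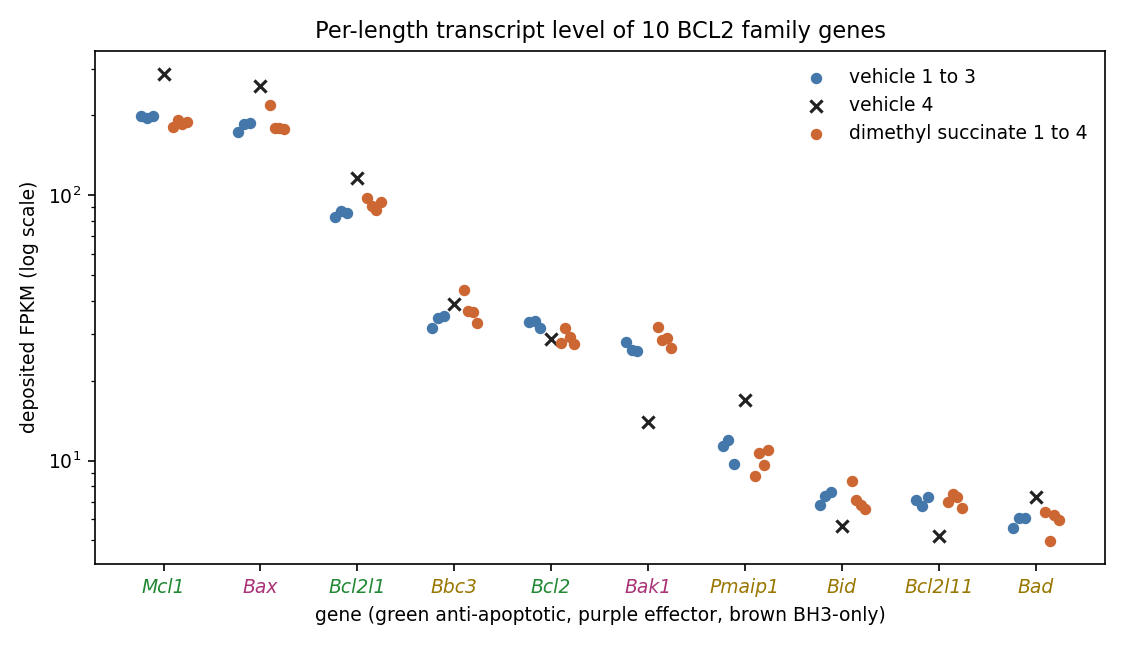
Deposited FPKM (log axis) of the 10 genes in each library, ordered by mean level; circles are libraries and the cross is vehicle replicate 4. Mcl1, Bax and Bcl2l1 lie above 80 FPKM in every library, and vehicle replicate 4 lies above all other libraries for Mcl1, Bax, Bcl2l1, Pmaip1 and Bad and below all others for Bak1, Bid and Bcl2l11.

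The summed signal of the 10 genes was divided among the roles in a similar way in all libraries. Anti-apoptotic transcripts took 54.0% ± 1.15 of the summed FPKM with vehicle and 52.0% ± 2.47 with dimethyl succinate (SD, n = 4). In dimethyl succinate replicate 1 they took 48.4%, the lowest share, and in the other 7 libraries 52.4% to 55.5%. Effector transcripts took 35.3% ± 0.496 with vehicle and 36.6% ± 2.15 with dimethyl succinate, and BH3-only transcripts 10.6% ± 0.768 and 11.4% ± 0.369 (SD, n = 4). Groups overlapped for the anti-apoptotic, effector and BH3-only shares. Without vehicle replicate 4, the BH3-only share was 10.8% to 11.2% with vehicle and 10.9% to 11.8% with dimethyl succinate. These shares depend on the per-length scale: by CPM, which gives long transcripts more weight, the anti-apoptotic share was 71.9% with vehicle and 70.1% with dimethyl succinate.

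**Figure D2:**
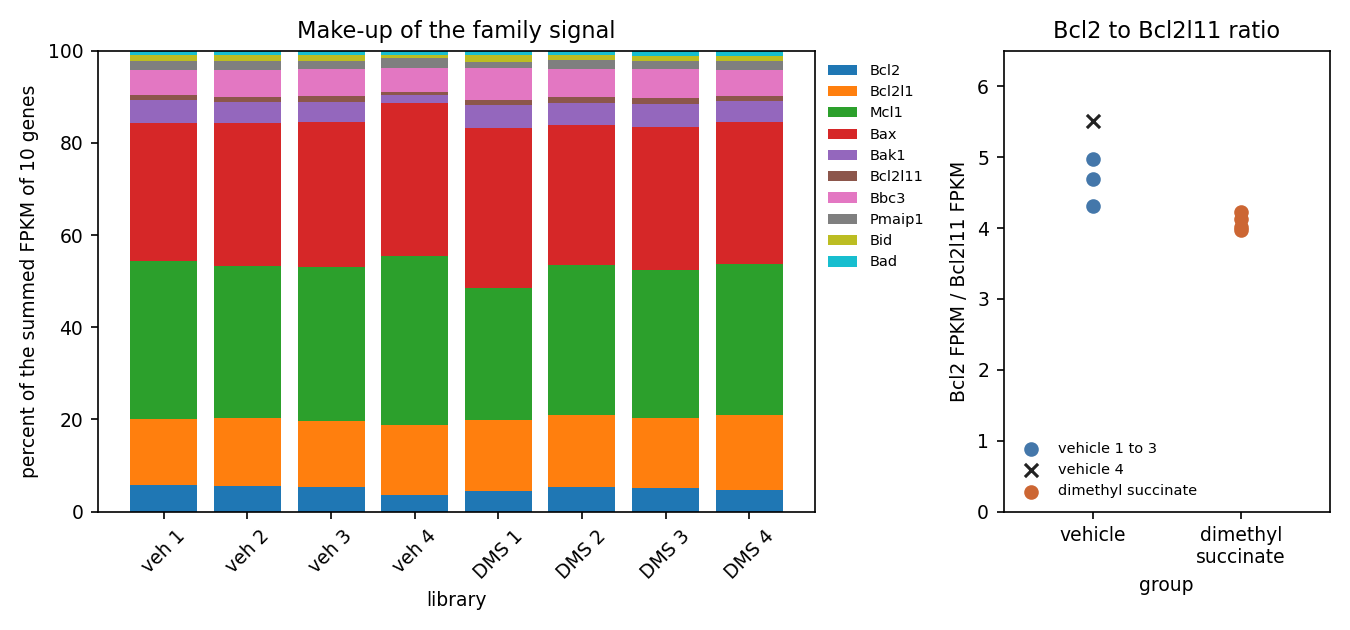
Left, each gene's percent of the summed FPKM of the 10 genes in each library; right, the ratio of Bcl2 FPKM to Bcl2l11 FPKM, with vehicle replicate 4 as a cross. Mcl1 and Bax take the largest shares in all 8 bars, and the 4 dimethyl succinate ratios lie between 3.98 and 4.22, below every vehicle ratio.

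No member of the family passed the test between dimethyl succinate and vehicle. In edgeR's quasi-likelihood test over all genes, 0 of 10 had an adjusted p below 0.05, where the call rate over all tested genes was also 0%. The smallest adjusted p among the members was 0.802. At an unadjusted p below 0.05 there were 0 of 10 members, beside 5.76% of all genes. DESeq2 called 0 members and had 2 of 10 at an unadjusted p below 0.05, Mcl1 and Pmaip1, beside 3.19% of the 27184 genes it tested and 5.05% of the 13981 tested with edgeR. Limma-voom called 0 members and had 0 at an unadjusted p below 0.05, beside 5.97% of all genes. Log2 fold changes ran from -0.31 (Pmaip1) to 0.31 (Bak1), with 5 members above 0 and 5 below, and a median of -0.040 beside -0.0011 over all tested genes. The 95% intervals were narrower than a 1.5-fold difference in either direction for 8 of the 10, the exceptions being Bak1 and Pmaip1. For all 10 they lay inside a 2-fold difference.

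Leaving out vehicle replicate 4 narrowed the intervals and changed which members stood out. Then 0 of 10 members passed the adjusted threshold, beside 0.197% of all genes. At an unadjusted p below 0.05 there were 2 of 10, Bcl2 on the lower side and Bcl2l1 on the higher side, beside 8.54% of all genes. All 10 intervals then lay inside a 1.5-fold difference in either direction. Log2 fold changes ran from -0.17 (Bcl2) to 0.15 (Bbc3). The labels name no animal or culture for a library, and p-values here measure only the spread between libraries, which may be technical.

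**Figure D3:**
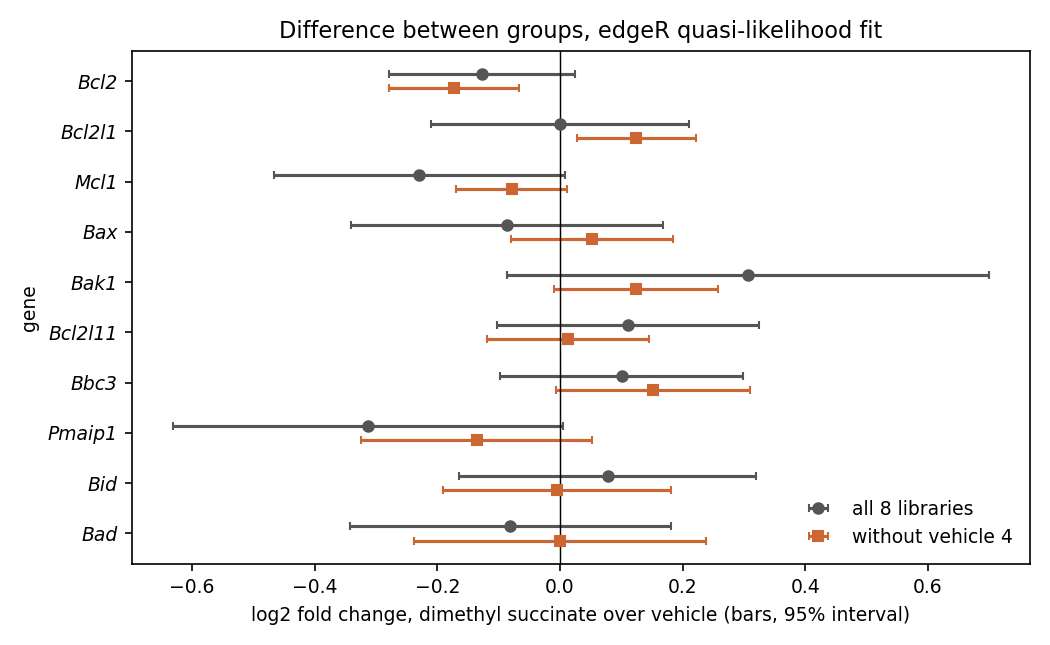
Log2 fold change of each gene with dimethyl succinate over vehicle with its 95% interval, with all 8 libraries (grey circles) and without vehicle replicate 4 (orange squares). All 10 grey intervals cross 0, and without vehicle replicate 4 the intervals of Bcl2 (-0.28 to -0.067) and Bcl2l1 (0.027 to 0.22) do not.

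Of the anti-apoptotic genes, Bcl2, the founding survival factor of the family, stood at 307, 309, 289 and 263 CPM in vehicle replicates 1 to 4 and at 256, 291, 270.2 and 253 CPM in dimethyl succinate replicates 1 to 4. The vehicle values were the higher ones, but dimethyl succinate replicate 2 lay above vehicle replicate 3 and, with replicate 3 of its group, above vehicle replicate 4. The log2 fold change was -0.13 ± 0.070 (SE), with edgeR adjusted p = 0.802. Without vehicle replicate 4 it was -0.17 ± 0.051 (SE), with edgeR unadjusted p = 0.00238 and adjusted p = 0.227. The direction was the same with each of the 8 libraries left out in turn, with values from -0.17 to -0.099. Bcl2 (ENSMUSG00000057329) maps to chromosome 1, 106538178 to 106714274 (GRCm38, minus strand). It shares 6.09% of its exon bases with the antisense gene D630008O14Rik, which had a mean of 0.572 CPM, and whether counting used strand is not given in the sources used here.

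Mcl1, whose short-lived protein restrains BAK and is needed for lymphocyte survival, was the only member whose groups did not overlap. It stood at 682, 673, 682 and 977 CPM with vehicle and at 622, 659.5, 637 and 653 CPM with dimethyl succinate, so all 4 treated libraries lay below all 4 vehicle libraries. That is 1 of 10 members, beside 4.82% of all genes with groups that did not overlap. Its log2 fold change was -0.23 ± 0.11 (SE), with edgeR adjusted p = 0.802. The size rested on vehicle replicate 4: without it the log2 fold change was -0.079 ± 0.044 (SE), a 3-library vehicle mean of 679 ± 5.38 CPM (SD, n = 3) against 643 ± 16.8 (SD, n = 4), and the groups still did not overlap. With it the vehicle SD was 149 CPM. Mcl1 (ENSMUSG00000038612) maps to chromosome 3, 95658788 to 95663176 (GRCm38, plus strand), and shares no exon base with another annotated gene.

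Bcl2l1 encodes BCL-XL, a survival protein that activated T cells are known to induce. It stood at 381, 402, 395 and 533 CPM with vehicle and at 450.0, 421, 407 and 435 CPM with dimethyl succinate. The highest of all 8 values belonged to vehicle replicate 4 and the lowest 3 to the other vehicle libraries. Group means were therefore level, 428 ± 70.8 and 428 ± 18.7 CPM (SD, n = 4), with a log2 fold change of 0.00087 ± 0.097 (SE) whose sign turned with DESeq2 (-0.0049) and with RLE scaling (-0.0029). Without vehicle replicate 4 every treated library lay above every vehicle library, and the log2 fold change was 0.12 ± 0.047 (SE), with edgeR unadjusted p = 0.0142 and adjusted p = 0.419. With Mcl1 this made 2 of 10 members whose groups did not overlap, beside 9.61% of all genes. The counts cannot separate the long, protective isoform from the short one, and the gene has 9 annotated transcripts.

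The effector genes differed from each other most in vehicle replicate 4. Bax, whose product moves from the cytosol into mitochondria during apoptosis, stood at 275, 294, 297 and 405 CPM with vehicle and at 348, 283, 286 and 281 CPM with dimethyl succinate. One library in each group stood clearly above the rest, vehicle replicate 4 and dimethyl succinate replicate 1, and the groups overlapped. The log2 fold change was -0.086 ± 0.12 (SE), or 0.052 ± 0.064 (SE) without vehicle replicate 4, and -0.026 without both of those libraries. Bax (ENSMUSG00000003873) maps to chromosome 7, 45461697 to 45466898 (GRCm38, minus strand), with 12.2% of its exon bases shared with Gm45808, a gene listed at 0 in every library.

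Bak1 encodes the effector that resides in the mitochondrial membrane. It stood at 67.9, 63.0, 62.3 and 33.7 CPM with vehicle and at 77.2, 68.8, 70.1 and 64.7 CPM with dimethyl succinate. Vehicle replicate 4 was the lowest by a wide margin, and vehicle replicate 1 overlapped the treated range. Its log2 fold change of 0.31 ± 0.18 (SE), the largest above 0 in the family, was 0.12 ± 0.065 (SE) without that library and 0.077 ± 0.058 (SE) without dimethyl succinate replicate 1 as well. The edgeR adjusted p was 0.802, or 0.627 without vehicle replicate 4. Because Bax was high and Bak1 low in the same library, the ratio of Bax to Bak1 FPKM was 18.3 in vehicle replicate 4 and 6.19 to 7.28 in the other 7. Bak1 (ENSMUSG00000057789) maps to chromosome 17, 27019810 to 27029009 (GRCm38, minus strand), and 25.5% of its exon bases overlap Ggnbp1 on the opposite strand. Ggnbp1 had a mean of 4.46 CPM.

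Among the BH3-only genes, Bcl2l11 encodes BIM, the main trigger of death in T cells deprived of cytokines. It stood at 57.4, 54.5, 58.9 and 41.9 CPM with vehicle and at 56.5, 60.4, 58.9 and 53.8 CPM with dimethyl succinate. Apart from vehicle replicate 4, which was the lowest of the 8, the groups covered the same range. The log2 fold change was 0.11 ± 0.099 (SE), or 0.014 ± 0.064 (SE) without that library, with a 95% interval of -0.12 to 0.15. Bcl2l11 (ENSMUSG00000027381) maps to chromosome 2, 128126038 to 128162547 (GRCm38, plus strand), and shares no exon base with another gene.

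Bbc3 encodes PUMA, a BH3-only protein induced by p53 and by FOXO3. It stood at 67.5, 73.9, 74.8 and 82.4 CPM with vehicle and at 94.3, 77.9, 77.5 and 70.6 CPM with dimethyl succinate. Dimethyl succinate replicate 1 was the highest of all libraries, and replicates 2 to 4 of the same group lay within the vehicle range. Its log2 fold change was 0.10 ± 0.091 (SE), or 0.15 ± 0.076 (SE) without vehicle replicate 4, and 0.066 ± 0.057 (SE) when dimethyl succinate replicate 1 was also left out. The edgeR adjusted p was 0.818, 0.612 and 0.781 in these 3 fits.

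Pmaip1 encodes NOXA, which binds MCL1 and promotes its breakdown. It stood at 30.2, 31.7, 25.9 and 44.6 CPM with vehicle and at 23.4, 28.3, 25.6 and 29.3 CPM with dimethyl succinate. The highest 3 values were vehicle libraries, while vehicle replicate 3 lay inside the treated range. The log2 fold change of -0.31 ± 0.15 (SE), the largest below 0 in the family, was -0.14 ± 0.091 (SE) without vehicle replicate 4. Pmaip1 and Mcl1 were both at their highest in vehicle replicate 4, and the ratio of Mcl1 to Pmaip1 FPKM there lay within the range of the other 7 libraries, 16.4 to 20.6.

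The remaining BH3-only members were low, and the sign for Bid differed between fits. Bid, which is cleaved by caspase-8 and so links death receptors to mitochondria, stood at 24.3, 26.2, 27.1 and 20.1 CPM with vehicle and at 30.1, 25.4, 24.2 and 23.5 CPM with dimethyl succinate. Bad, which is held inactive by growth factor signalling, stood at 11.2, 12.3, 12.3 and 14.7 CPM with vehicle and at 13.0, 10.1, 12.6 and 12.1 CPM with dimethyl succinate. Groups overlapped for both genes. For Bid the log2 fold change was 0.078 ± 0.11 (SE), or -0.0046 ± 0.091 (SE) without vehicle replicate 4, and for Bad -0.081 ± 0.12 (SE), or -0.00048 ± 0.12 (SE). Both overlap a neighbour on the opposite strand that is at least as abundant, so without stated strand their counts are uncertain. Bcl2l13 (mean 82.7 CPM) overlaps 17.7% of the exon bases of Bid, and Gpr137 (mean 13.7 CPM) 20.5% of those of Bad. The share for Bad is of its GENCODE M21 gene model, with 2558 exon bases, while the listed length is 2007.

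Vehicle replicate 4 carried most of the spread within the family. It was the highest of the 8 libraries for Bcl2l1, Mcl1, Bax, Pmaip1 and Bad and the lowest for Bak1, Bcl2l11 and Bid. That is 8 of 10 members, beside 58.3% of all tested genes. Against the mean of vehicle replicates 1 to 3, Pmaip1 stood 1.52-fold higher, Mcl1 1.44-fold, Bax 1.40-fold and Bcl2l1 1.36-fold higher in that library, while Bak1 stood 1.91-fold lower and Bcl2l11 1.36-fold lower. Dimethyl succinate means stood at ratios from 0.887 (Bcl2) to 1.11 (Bbc3) to the same 3 libraries. Vehicle replicate 4 stood at 0.872 and 1.14 for these genes. A mean of 4 libraries varies less than 1 library, so the sizes cannot be compared directly. Dimethyl succinate replicate 1 was the next most distant, highest for Bak1, Bbc3 and Bid and lowest for Mcl1 and Pmaip1. It was the highest or lowest library for 33.1% of all tested genes. Why these libraries differ was not tested.

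**Figure D4:**
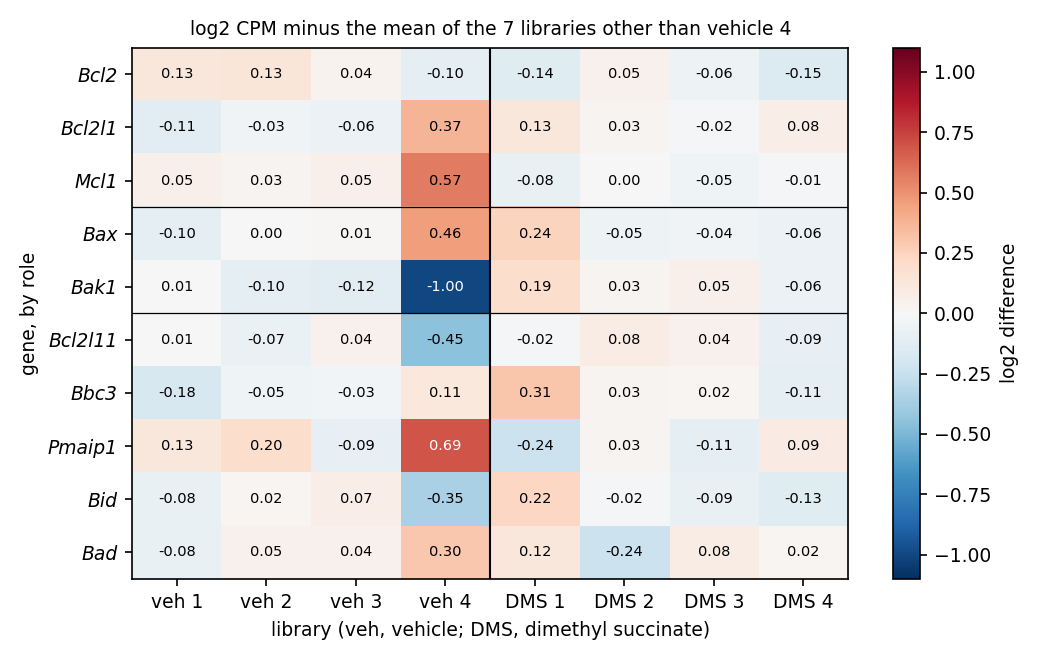
Log2 CPM of each gene in each library minus its mean over the 7 libraries other than vehicle replicate 4; red is higher and blue lower. The vehicle 4 column is the most strongly coloured, reaching 0.69 for Pmaip1 and its lowest value for Bak1, while the highest value elsewhere is 0.31 (Bbc3, dimethyl succinate replicate 1).

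Ratios of FPKM were computed for 7 pairs of members, picked with the levels known. Groups did not overlap for 1 of the 7, Bcl2 to Bcl2l11, although each gene alone overlapped between groups. Among single genes, groups did not overlap for 4.82%, or 9.61% without vehicle replicate 4. The rate for ratios of other gene pairs was not measured. The ratio of Bcl2 to Bcl2l11 stood at 4.70, 4.97, 4.31 and 5.51 in vehicle replicates 1 to 4 and at 3.98, 4.22, 4.02 and 4.13 in dimethyl succinate replicates 1 to 4. All 4 treated libraries lay below the lowest vehicle library, also without vehicle replicate 4. Means were 4.87 ± 0.507 with vehicle and 4.09 ± 0.110 with dimethyl succinate (SD, n = 4), and 4.66 ± 0.334 for vehicle replicates 1 to 3. The ratio depends on the listed gene lengths for its size but not for its order. No test was made of it, since it was picked among several with the values in view.

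The family has further members, fixed as a list of 15 genes beside the 10. Of these 12 had enough counts to be tested and 0 passed the adjusted threshold. With all libraries 0 had an unadjusted p below 0.05, beside 5.76% of all genes. The median log2 fold change was -0.050, or 0.017 without vehicle replicate 4. Bcl2l13, a mitochondrial family member, stood at 83.1 ± 2.92 CPM with vehicle and 82.2 ± 2.15 with dimethyl succinate (SD, n = 4). Bnip3l, a mitophagy receptor and the most abundant of the list, stood at 129.8 ± 8.93 and 123 ± 3.16 CPM, and Bnip3, its relative, at 27.7 ± 3.77 and 26.2 ± 2.38. Without vehicle replicate 4, 1 of the 12 had an unadjusted p below 0.05, beside 8.54% of all genes. That gene was Bnip3l, lower in all 4 treated libraries. It was also the 1 gene of the list whose groups did not overlap, beside 9.61% of all genes. Its log2 fold change was then -0.12 ± 0.051 (SE), with edgeR unadjusted p = 0.0227 and adjusted p = 0.489. Bcl2l2, which encodes the survival protein BCL-W, stood at 23.1 ± 2.09 and 22.8 ± 1.63 CPM and Bcl2l12 at 10.2 ± 0.238 and 10.6 ± 1.63. The A1 survival genes, NF-kB targets in lymphocytes, were present as Bcl2a1d at 27.3 ± 5.65 and 25.8 ± 2.16 CPM and Bcl2a1b at 12.4 ± 1.5 and 13.1 ± 1.04. They share 79.5% and 79.2% of their 50-base windows with transcripts of other genes, mainly each other, Bcl2a1a and Gm29094. Gm29094 also shares 49.1% of the exon bases of Bcl2a1b on the same strand. How reads were divided among these genes is therefore uncertain. Bnip3 and Bnip3l share 47.2% and 20.8% of their windows with other genes, and 33.4% of the exon bases of Bcl2l12 overlap neighbours. Their counts are uncertain for that reason. The BH3-only genes Bmf and Bik stood at 3.59 ± 0.47 and 1.02 ± 0.452 CPM with vehicle and 3.83 ± 0.427 and 0.876 ± 0.307 with dimethyl succinate. Bok had at most 5 counts and Hrk at most 2 in any library, and Bcl2l10 is listed at 0.

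Downstream of the mitochondria, 18 genes of the apoptosome, the caspases and their inhibitors were all tested. None passed the adjusted threshold, 7 lay above 0 and 11 below, and the median log2 fold change was -0.029, or -0.021 without vehicle replicate 4. Apaf1, the scaffold that cytochrome c activates, stood at 190.5 ± 13.98 CPM with vehicle and 187 ± 7.82 with dimethyl succinate, and Cycs, which encodes cytochrome c, at 91.0 ± 12.3 and 90.3 ± 8.44 (SD, n = 4). The initiator Casp9 stood at 12.4 ± 1.17 and 13.8 ± 1.89 CPM. Inhibitors of apoptosis were abundant: Birc6 stood at 495 ± 58.7 and 552 ± 31.6 CPM, Birc3 at 234 ± 25.7 and 235 ± 2.59, Xiap at 135 ± 3.07 and 129 ± 12.02 and Birc2 at 98.7 ± 9.13 and 92.8 ± 3.06. Birc5, a mitotic member of that group, stood at 14.1 ± 2.05 and 13.8 ± 1.85 CPM, and Diablo, which relieves their inhibition, at 14.1 ± 1.76 and 12.8 ± 2.33.

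In the death receptor pathway, which meets the BCL2 family at Bid, 14 of 14 genes were tested and 0 passed the adjusted threshold. The median log2 fold change was -0.014, or 0.030 without vehicle replicate 4. Cflar, the inhibitor of caspase-8 activation and the most abundant of the list, stood at 411 ± 19.9 CPM with vehicle and 406 ± 27.6 with dimethyl succinate (SD, n = 4). Casp8 stood at 114 ± 4.51 and 106 ± 2.31 CPM, with a log2 fold change of -0.11 ± 0.057 (SE). Fas, the receptor, stood at 80.2 ± 4.74 and 77.7 ± 1.64 CPM, and Fasl, its ligand, at 4.32 ± 1.39 and 4.99 ± 0.403.

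Regulators that act on transcription of family members formed a list of 15, of which 14 were tested and 0 passed, with a median log2 fold change of 0.027, or 0.036 without vehicle replicate 4. Foxo3, a transcription factor known to act on Bcl2l11 and Bbc3, stood at 174, 175, 163 and 166 CPM with vehicle and at 193, 198, 188 and 177 CPM with dimethyl succinate. All 4 treated libraries lay above all 4 vehicle libraries, and the log2 fold change was 0.16 ± 0.059 (SE), with edgeR adjusted p = 0.802, or 0.348 without vehicle replicate 4. Foxo1, its relative, stood at 235 ± 6.32 and 229 ± 7.24 CPM (SD, n = 4). Trp53, which encodes p53, stood at 238 ± 38.8 and 255 ± 10.6 CPM. Of the p53 targets, Mdm2 stood at 267 ± 28.8 and 258 ± 15.0 CPM, and Cdkn1a, the cell cycle inhibitor p21, at 479 ± 42.1 and 528 ± 25.4 CPM. Stat5a and Stat5b, which relay survival cytokines to Bcl2, Bcl2l1 and Mcl1, stood at 902 ± 42.4 and 961 ± 53.0 CPM and at 402 ± 9.57 and 419 ± 14.8. Il7r, a receptor chain of such a cytokine, stood at 37.3 ± 5.71 and 37.5 ± 3.65 CPM, and Myc at 363 ± 54.4 and 376 ± 9.01. Ddit3, a stress-induced regulator of Bcl2l11, is listed at 0 in all libraries, and whether that reflects expression or the annotation used for counting is not given in the sources used here.

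Proteins that bind, modify or degrade family members formed a list of 15, all tested, with 0 called and a median log2 fold change of -0.052, or -0.00082 without vehicle replicate 4. Huwe1, a ubiquitin ligase for MCL1 and the most abundant of the list, stood at 815 ± 82.7 CPM with vehicle and 881 ± 33.6 with dimethyl succinate (SD, n = 4). Vdac2 and Vdac1, channels of the outer membrane, stood at 211 ± 11.2 and 217 ± 6.2 CPM and at 167 ± 8.18 and 166 ± 6.81. Bag1, a co-chaperone of BCL2, stood at 106 ± 21.1 and 100.4 ± 4.61 CPM.

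Over the 5 lists together, 73 of 77 genes were tested and 0 passed the adjusted threshold in edgeR's quasi-likelihood test. By DESeq2 and limma-voom 0 passed as well. At an unadjusted p below 0.05 there were 4, beside 5.76% of all genes: Foxo3 and Tnfrsf1b on the higher side and Casp6 and E2f1 on the lower side, the last 3 being named here after their values were seen. Groups did not overlap for 4 of the 73, beside 4.82% of all genes. Without vehicle replicate 4 still 0 of the 73 passed, beside 0.197% of all genes, and 9 had an unadjusted p below 0.05, beside 8.54%. Groups then did not overlap for 12 of the 73, beside 9.61% of all genes. Leaving out dimethyl succinate replicate 1 as well, a check chosen after the data were seen, 2 of the 73 passed, beside 0.502% of all genes, and 0 of the 10 members did.

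**Figure D5:**
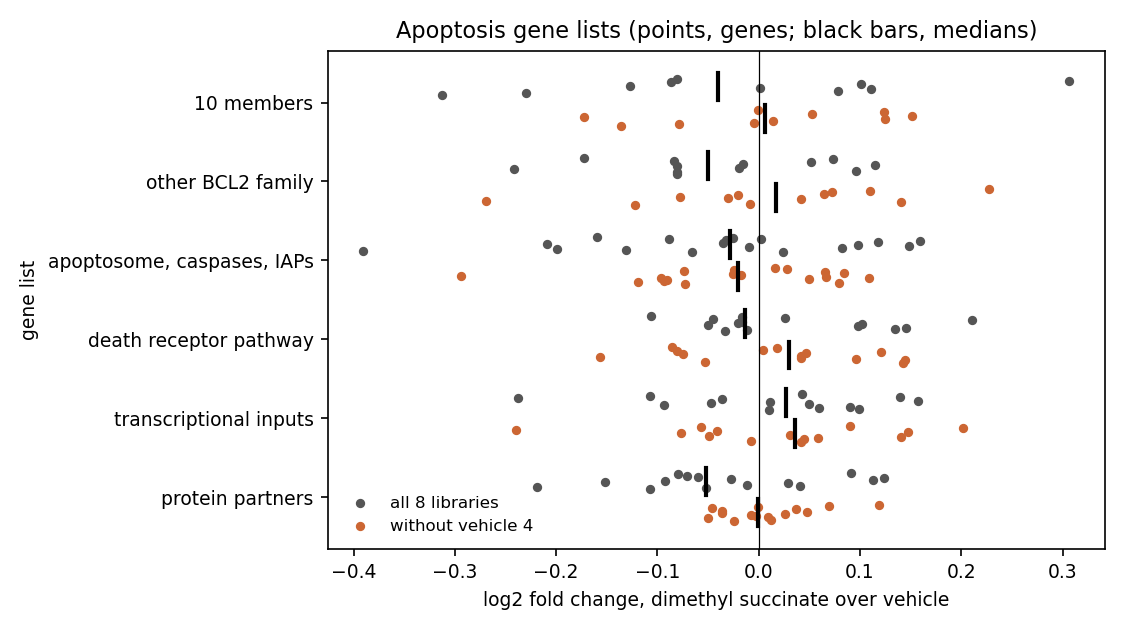
Log2 fold change of each tested gene of the 10 members and the 5 further lists, with all 8 libraries (grey) and without vehicle replicate 4 (orange); black bars are medians. The medians lie between -0.052 and 0.036 in all 6 rows.

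The authors' deposited table gives its own comparison for the 10 members. In the authors' deposited table their log2 fold changes run from -0.32 (Pmaip1) to 0.30 (Bak1), with p-values of 0.0409 for Pmaip1, 0.0434 for Mcl1 and 0.0737 for Bak1, and no adjusted p of a member in the authors' deposited table lies below 0.823.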

How the data were processed

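Counts of all 54532 genes in 8 libraries were used as the authors deposited them, as raw counts per gene per the file headers. The authors also deposited FPKM values, per the file headers, and group means, read here as a normalised signal because the headers name no unit. The table further holds the authors' deposited log2 fold changes and p-values. HISAT2 2.0.5 is named in the submitters' processing notes, and the counter, annotation and strand setting are not given in the sources used here. Listed coordinates of 8 of the 10 members equalled GENCODE M21 (GRCm38), the exceptions being Pmaip1 and Bad.

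Genes were kept by filterByExpr, scaled by TMM and tested across all genes with edgeR 4.0.16 (quasi-likelihood, robust, two-sided, R 4.3.3), with p-values adjusted by Benjamini-Hochberg at 0.05. SE is the log2 fold change over the root of F, and intervals cover 95%. Alternatives were DESeq2 1.42.0, limma-voom and limma-trend (limma 3.58.1) on log2(FPKM + 1) and log2(FPKM + 0.1), RLE, upper quartile or no scaling factors, no filter or at least 5 CPM in 4 libraries, a replicate block, and each library left out. The edgeR script was tested on simulated data. Replicates differed by more than counting noise (lowest chi-square per gene 2.12), so none was taken as a copy. The members, gene lists and named genes were chosen with earlier results of these data known: all 10 members, a fixed set of pathway genes and the most abundant gene of each list. A few genes of these lists are not reported here.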

Additional observations from a re-analysis of the deposited data

Results flagged for a closer look

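Within groups of 4 libraries, 5 member values lay far from the other 3 by the share of the group's range that separated them from their nearest neighbour. Vehicle replicate 4 was the distant library for Mcl1 at 977 CPM (0.969 of the range), Bcl2l1 at 533 CPM (0.859), Bak1 at 33.7 CPM (0.836) and Bax at 405 CPM (0.830). Dimethyl succinate replicate 1 was the distant library for Bax at 348 CPM (0.933). The bound was Dixon's 95% critical value, and 20 groups were examined, of which about 1 would be marked if values were normally distributed. The groups are not independent, since all genes were measured in the same libraries, so the number marked cannot be judged against that figure. Over all tested genes, 11.2% of the vehicle groups and 5.69% of the dimethyl succinate groups were marked in the same way. The cause was not tested.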

How the results depend on the processing

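No member passed the adjusted threshold under any of the 10 alternatives, with any of the 8 libraries left out, or with vehicle replicate 4 and dimethyl succinate replicate 1 both left out, a check added after the data were seen. The count over all genes, 0, was 6 with no low-count filter and ran from 0 to 28 with 1 library left out, 28 being without vehicle replicate 4. It was 71 with both libraries left out, when Casp6 and Cdkn1a made the count 2 in the further lists. With the replicate block it was 1. That edgeR fit had 3 members at an unadjusted p below 0.05, Mcl1, Bak1 and Pmaip1. With no low-count filter, or without vehicle replicate 1 or 3, there were 2, Mcl1 and Pmaip1. There was 1 without vehicle replicate 2 (Mcl1), without dimethyl succinate replicate 2 (Bcl2) and without dimethyl succinate replicate 4 (Pmaip1). Without dimethyl succinate replicate 1 or 3 there were 0. The share of all genes at that level was not counted in these fits, so these counts have no background rate and are not read as a result. Same-numbered libraries correlated at -0.014, 0.011, 0.056 and 0.13 in their deviations, and not every library correlated best with its own number. Bcl2l1 turned sign with DESeq2 (-0.0049), with RLE scaling (-0.0029) and over single left-out libraries (-0.049 to 0.12). Bax ran from -0.16 to 0.052 and Bid from -0.0046 to 0.13, and Bid was -0.083 with both left out. The anti-apoptotic share of summed signal was 71.9% and 70.1% by CPM, and ran from 53.5% to 54.4% for vehicle and from 51.4% to 53.2% for dimethyl succinate over left-out libraries. Depth limited Bad most, at 159 to 211 counts per library.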

Other observations

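Casp6, an executioner caspase, and Cdkn1a, the cell cycle inhibitor p21, were the genes of the further lists that passed the adjusted threshold once vehicle replicate 4 and dimethyl succinate replicate 1 were left out. Casp6, named after its values were seen, stood at 63.7, 59.1, 59.4 and 46.8 CPM in vehicle replicates 1 to 4 and at 53.8, 49.2, 48.6 and 46.5 CPM in dimethyl succinate replicates 1 to 4. Its log2 fold change was -0.21 with all libraries, -0.29 without vehicle replicate 4 and -0.33 ± 0.061 (SE) without both, and the edgeR adjusted p was 0.802, 0.0554 and 0.00569. Cdkn1a stood at 443, 471, 462 and 539 CPM with vehicle and at 554, 516, 498 and 543 CPM with dimethyl succinate. Its log2 fold change was 0.14, 0.20 and 0.18 ± 0.040 (SE) in these 3 fits, with adjusted p of 0.802, 0.0833 and 0.0259. Itga2b, a platelet and megakaryocyte integrin on the marker list, stood at 39.7 CPM in vehicle replicate 4 and at 17.3 to 24.9 CPM in the other 7 libraries, while Ppbp, a platelet chemokine, was at 0.278 CPM there and 0.342 to 0.831 elsewhere.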
